A study of Homo sapiens with 6 samples.

Results

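R-loop peaks at 5 genes of the DBHS and FET protein families were described in HEK293T, an established line of human embryonic kidney cells. The genes were SFPQ, NONO and PSPC1, which encode the DBHS proteins, and EWSR1 and TAF15, which encode members of the FET family. They were taken by gene name from GENCODE release 44 mapped to GRCh37 and are 5 of 19819 protein-coding genes with a canonical transcript on chromosomes 1 to 22 and X. A peak belonged to a gene when it overlapped the gene record or the 10 kb on either side of it, on either strand. By this rule 12 of 10231 peaks in untreated cells and 13 of 11085 peaks in treated cells lay at the 5 genes.

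The study mapped R-loops by spKAS-seq, a strand-specific form of kethoxal-assisted sequencing of single-stranded DNA, in wild-type HEK293T cells that were left untreated or exposed to 10 µM N2-heptynyl-dG for 3 h. N2-heptynyl-dG is a deoxyguanosine with an alkyl group on the amino group that faces the minor groove, and the comparison asks whether its presence in the DNA alters where R-loops are found. All cells, untreated ones included, then received 5 mM N3-kethoxal for 10 min, an agent that reacts with guanine in unpaired DNA. The labels name 2 samples of untreated cells, 2 of treated cells and 2 inputs, but only 1 peak list per condition was analysed here, attached to replicate 1. Each line of a list gives a position and a strand and no height, so the read depth behind a peak is unknown and no value carries a spread between replicates. A peak in 1 list only can therefore not be told apart from a peak that fell just under the calling threshold in the other. No p-value was computed.

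An R-loop forms when nascent RNA pairs with its template strand, leaving the other DNA strand unpaired, and such structures are common near transcription start sites and beyond the 3′ ends of active genes. The DBHS proteins bind RNA and single-stranded DNA as dimers, form the core of paraspeckles on the long non-coding RNA NEAT1, and take part in transcription, splicing and DNA repair. The FET proteins bind RNA, interact with RNA polymerase II and its general factors, and carry low-complexity domains that drive condensation. Below, a sense peak is listed on the strand of its gene and an antisense peak on the opposite strand. The lists do not say whether their strand is that of the RNA and the displaced DNA, which run the same way, or that of the template. These names, like the GC skew, rest on the strand as listed. A peak that touched the 1000 bp on either side of the canonical start site was counted as a start peak, whatever else it covered.

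The 5 genes differed most at their starts, and each had another combination of start peaks in the 2 lists. SFPQ had a sense start peak with the same borders in both lists, with an antisense peak beside it in the treated list only. NONO had a sense start peak in the untreated list only. PSPC1 had a sense start peak in both lists, wider in the treated list. EWSR1 had no start peak in either list, and TAF15 had an antisense start peak in the untreated list and a sense start peak in the treated list. Beyond the canonical 3′ end, a class added after seeing the data, the genes were more alike. SFPQ, NONO, EWSR1 and TAF15 each had a sense peak there in both lists, as did 14.7% of coding genes, while PSPC1 had none in either. The NONO peak also lay across the start of another gene, ITGB1BP2. By the whole gene record, a peak past the end was at SFPQ and EWSR1 in untreated cells, against 20.8% of coding genes. In treated cells it was at SFPQ alone, against 21.6%.

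**Figure D1:**
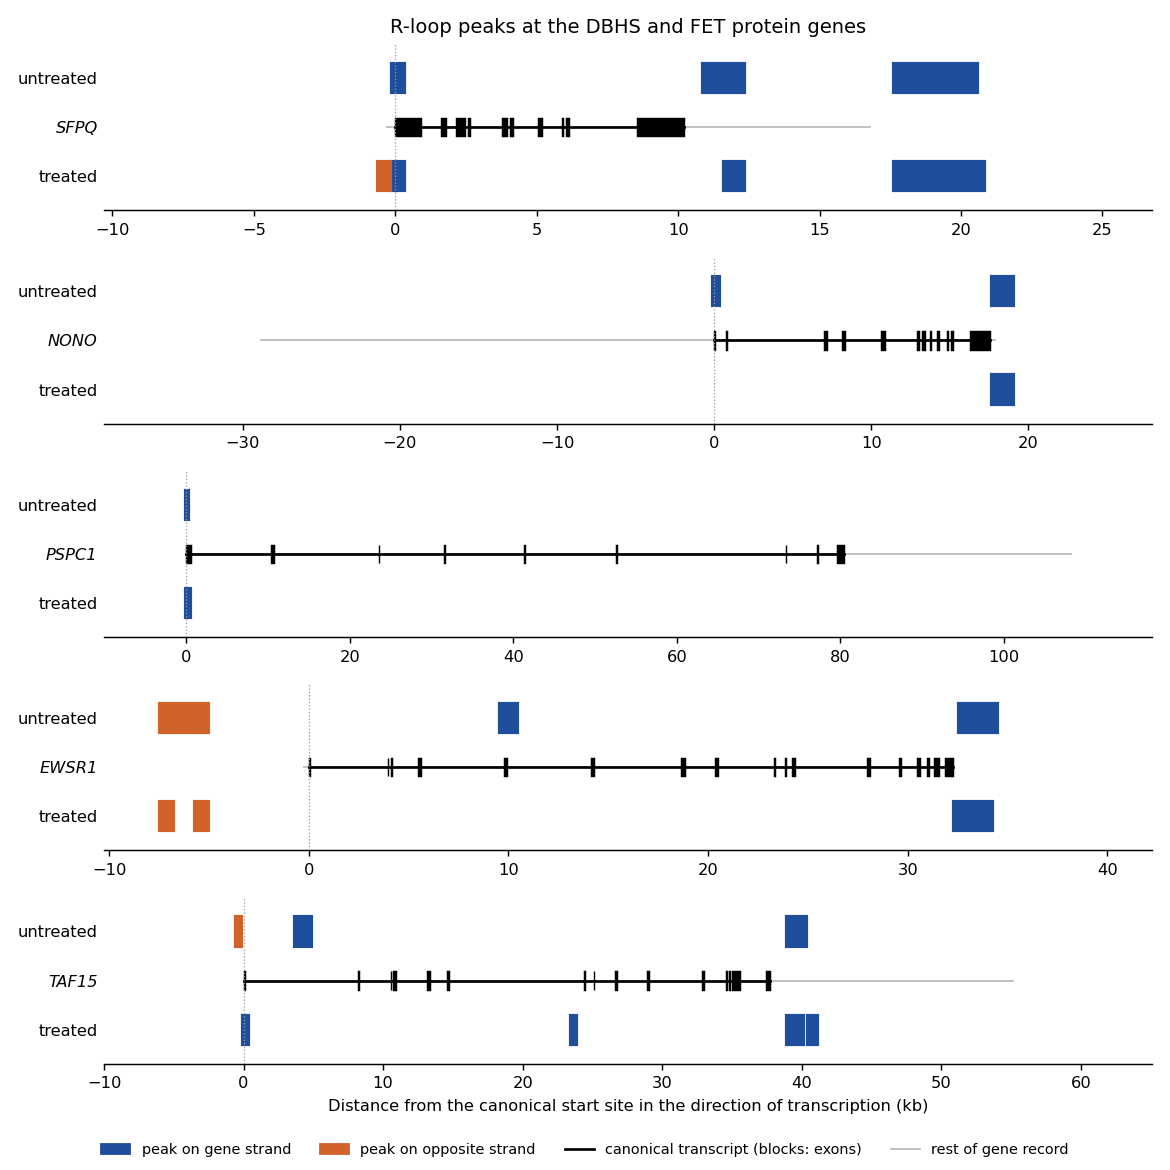
R-loop peaks at SFPQ, NONO, PSPC1, EWSR1 and TAF15. The x axis is the distance in kb from the canonical start site in the direction of transcription, with its own scale for each gene. Blue bars are peaks on the strand of the gene and orange bars peaks on the opposite strand, with untreated cells above and treated cells below the gene. Black blocks are exons of the canonical transcript and the grey line is the rest of the gene record. Of the 5 genes, 4 have sense peaks past the black transcript in both lists.

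SFPQ encodes the largest DBHS protein, a splicing factor rich in proline and glutamine. Its record lies at chr1:35641979-35659047 on the minus strand (GRCh37), and its canonical transcript covers 10210 bp with 10 exons. The start peak, chr1:35658397-35658896 on the minus strand, was 500 bp wide in both lists. It held 150 bp upstream of the start site and 350 bp of exon 1, of which 254 bp were coding. With a GC content of 64.0% it was richer in G and C than 78.1% of untreated and 73.9% of treated peaks, but the listed strand carried more C than G. The GC skew, the difference between G and C divided by G plus C and read along the listed strand, was -0.056. The coding stretch of 100 bases with the largest excess of C over G in this peak is shown, with runs of 3 or more C in capitals. It holds the repeats for proline and glutamine that give the protein its name. It was read from chr1:35658397-35658496 on the minus strand.
SFPQ exon 1, coding: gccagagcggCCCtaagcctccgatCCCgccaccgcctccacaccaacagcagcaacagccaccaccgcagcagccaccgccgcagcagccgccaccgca
The antisense peak of the treated list, chr1:35658897-35659396 on the plus strand, was also 500 bp wide and began at the base next to the sense peak, 151 bp upstream of the canonical start site. It covered the start site of another annotated SFPQ transcript, which runs on the minus strand. Its GC content of 44% exceeded that of only 8.4% of treated peaks, so the adjoining peaks on opposite strands differed in composition as well as in strand.

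Beyond the end of SFPQ both lists held a pair of sense peaks. The nearer one ran in untreated cells from 641 bp past the canonical end, at chr1:35646397-35647896, and was 1500 bp wide. In treated cells it was 750 bp wide, at chr1:35646397-35647146, so the 750 bp closest to the transcript were no longer listed. This peak was inside the gene record and covered the start sites of 2 further SFPQ transcripts without a defined coding sequence in the untreated list, and of 1 in the treated list. Its GC content was 37.8% in untreated and 39.9% in treated cells, which was above only 1.3% and 2.3% of peaks. The farther peak began 7391 bp past the canonical end and lay outside the gene record. It was 3000 bp wide in untreated cells, at chr1:35638147-35641146, and 3250 bp wide in treated cells, at chr1:35637897-35641146. These were among the widest peaks of the lists, wider than 99.3% of untreated and 99.7% of treated peaks.

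The part of the nearer SFPQ peak that was missing from the treated list held the only quadruplex-type motif among the 12 untreated peaks at the 5 genes. The motif was taken as 4 runs of 3 or more G separated by 1 to 7 bases of any kind, on the strand of the peak. Outside annotated exons, the 100 bases of the untreated peak with the largest excess of G over C were chr1:35647751-35647850 on the minus strand. They start 687 bp past the canonical end and close with the match. Runs of 3 or more G are in capitals.
SFPQ beyond the end: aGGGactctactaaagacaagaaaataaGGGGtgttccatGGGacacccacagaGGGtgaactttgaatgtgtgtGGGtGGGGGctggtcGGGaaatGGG
The match itself is at chr1:35647751-35647775 and is 25 bases long.

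NONO encodes a DBHS protein that commonly forms heterodimers with SFPQ. Its record is chrX:70474664-70521372 on the plus strand, of which the canonical transcript, with 12 exons, covers 17534 bp. In untreated cells a sense peak of 500 bp, chrX:70503331-70503830, covered the start site with 154 bp upstream of it, 87 bp of exon 1 and 259 bp of intron 1. It also covered the start sites of 33 other NONO transcripts. Its GC content was 56.0%, close to the median of 56.2% over untreated peaks. No NONO start peak was in the treated list. The other NONO peak, chrX:70521081-70522580 on the plus strand, had the same borders in both lists, was 1500 bp wide and began 63 bp past the canonical end. It lay across the start of ITGB1BP2, a downstream gene on the same strand that starts at position 70521600, and overlapped the longer NONO record by 292 bp. Whether this signal comes from transcription past NONO or from the start of ITGB1BP2 cannot be told apart from the lists. Outside annotated exons, the 100 bases of this peak with the largest excess of G over C, chrX:70522457-70522556 on the plus strand, hold 41 G and 12 C. They are shown for comparison with those at SFPQ, with runs of 3 or more G in capitals.
NONO beyond the end: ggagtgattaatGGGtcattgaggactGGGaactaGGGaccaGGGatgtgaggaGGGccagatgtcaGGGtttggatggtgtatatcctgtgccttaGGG

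PSPC1 encodes the third DBHS protein, named after the paraspeckle. It has the longest record of the 5, 108268 bp at chr13:20248892-20357159 on the minus strand, and a canonical transcript of 80446 bp. Its start peak was 500 bp wide in untreated cells, chr13:20356751-20357250, with 165 bp upstream of the start site and 335 bp of exon 1. In treated cells it was 750 bp wide, chr13:20356501-20357250, and reached 25 bp into intron 1. The extension was on the side of the gene, and the upstream border stayed where it was. The peak held 147 coding bases in untreated and 372 in treated cells. GC content was 59.8% in untreated and 60.7% in treated cells, and GC skew was 0.124 and 0.077. No other peak lay in the PSPC1 record or within 10 kb of it in either list. The first 100 coding bases of PSPC1, chr13:20356798-20356897 on the minus strand, lie in both start peaks and are shown from the start codon, with the run of 3 or more G in capitals.
PSPC1 exon 1, coding: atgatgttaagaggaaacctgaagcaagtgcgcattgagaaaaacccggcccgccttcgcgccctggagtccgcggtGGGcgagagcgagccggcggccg

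EWSR1 encodes the FET protein first known from its fusions in Ewing sarcoma. Its record, chr22:29663998-29696515 on the plus strand, overlaps the start region of RHBDD3, a gene on the minus strand, so that the genes are transcribed away from each other. No peak on either strand touched the 1000 bp on either side of the EWSR1 start site. The nearest was an antisense peak of 2500 bp in untreated cells, chr22:29656761-29659260 on the minus strand, whose near border was 4997 bp before the start site. It lay inside RHBDD3, on the strand of that gene, and also overlapped ENSG00000237015, a long non-coding RNA gene on the plus strand. In treated cells the same interval held 2 peaks of 750 bp, chr22:29656761-29657510 and chr22:29658511-29659260, with the outer borders kept and 1000 bp between them not listed.

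Within EWSR1, untreated cells had a sense peak of 1000 bp at chr22:29673761-29674760, starting 9504 bp into the gene, with 187 bp in exon 5 and 813 bp in introns. No treated peak overlapped it. The peak beyond the end was 2000 bp wide in both lists but shifted by 250 bp, from chr22:29696761-29698760 in untreated to chr22:29696511-29698510 in treated cells. The untreated peak began 250 bp past the canonical end and the treated peak at the last base of the transcript. These were the only peaks beyond an end at the 5 genes with more C than G on the listed strand, with a GC skew of -0.146 in untreated and -0.149 in treated cells. Only 8.2% of untreated and 9.4% of treated peaks had a lower skew. Outside annotated exons, the 100 bases with the largest excess of C over G were chr22:29697398-29697497 on the plus strand. They begin 887 bp past the canonical end and hold 48 C and 11 G. Runs of 3 or more C are in capitals.
EWSR1 beyond the end: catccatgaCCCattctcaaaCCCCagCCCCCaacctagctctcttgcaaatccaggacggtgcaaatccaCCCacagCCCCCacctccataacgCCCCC

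TAF15 encodes a FET protein that associates with the general transcription factor TFIID. Its record is chr17:34136486-34191619 on the plus strand, and its canonical transcript, with 16 exons, covers 37759 bp. At the start the lists held peaks of equal width on opposite strands. The untreated peak, chr17:34135873-34136372 on the minus strand, was 500 bp wide and ended 116 bp before the start site. It also overlapped ENSG00000270829, a long non-coding RNA gene on the minus strand that starts within 1000 bp of it, and the lists do not tell to which of the genes it belongs. The treated peak, chr17:34136373-34136872 on the plus strand, was also 500 bp wide, began at the next base and covered 115 bp upstream of the start site, 93 bp of exon 1 and 292 bp of intron 1. GC content was 51.4% in the untreated antisense peak and 69.4% in the treated sense peak, the highest of the member peaks. The treated peak carried the only quadruplex-type motif among the 13 treated peaks at the 5 genes, at chr17:34136687-34136707 on the plus strand, in canonical intron 1. The match also overlaps an exon of another annotated transcript. It is shown with its G runs in capitals. Its last unbroken run of G was counted as separate runs, since the bases between runs could themselves be G.
TAF15 start, intron 1: GGGaggcttGGGGtGGGGGGG
Over all peaks on chromosomes 1 to 22 and X, 18.2% of untreated and 19.3% of treated peaks held such a motif, against 1 of 12 and 1 of 13 at these genes.

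Inside TAF15, the untreated list held a sense peak of 1250 bp in intron 1, chr17:34140123-34141372, and the treated list a sense peak of 500 bp in intron 7, chr17:34159873-34160372. Neither overlapped a peak of the other list. Past the canonical end, a sense peak of 1500 bp in untreated cells, chr17:34175373-34176872, faced a peak of 1250 bp with the same near border, chr17:34175373-34176622, in treated cells. Both began 1127 bp past the canonical end and covered the start of another TAF15 transcript without a defined coding sequence. The treated list held a further sense peak of 750 bp after a gap, chr17:34176873-34177622, which began 2627 bp past the end. It overlapped no untreated peak but began at the base next to the far border of the untreated peak. This peak had a GC skew of 0.3, higher than 99.1% of treated peaks. Outside annotated exons, its 100 bases with the largest excess of G over C, chr17:34177206-34177305 on the plus strand, hold 35 G and 10 C. Runs of 3 or more G are in capitals.
TAF15 beyond the end, treated list only: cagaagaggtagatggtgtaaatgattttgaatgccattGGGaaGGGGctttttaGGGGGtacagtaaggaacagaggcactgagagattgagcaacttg

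Set against all protein-coding genes, a sense start peak in 3 of the 5 genes compares with 18.6% of genes in untreated cells (95% Wilson interval 18.0 to 19.1, which covers counting error only) and 20.6% in treated cells. The 3 genes were SFPQ, NONO and PSPC1 in the untreated list and SFPQ, PSPC1 and TAF15 in the treated list. Both lists had a sense start peak at SFPQ and PSPC1 and at 15.2% of coding genes, and the borders were the same at SFPQ and at 8.28% of coding genes. An antisense start peak was found at TAF15 in untreated cells, against 11.2% of coding genes, and at SFPQ in treated cells, against 12.1%. With 5 genes chosen by family, these counts describe the genes and say nothing of the families in general.

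The change of state at each start was placed among all coding genes. Of 3067 genes with start peaks on the sense strand alone in untreated cells, 77.9% were the same in treated cells, as was PSPC1. Another 17.1%, including NONO, had no start peak in treated cells, and 3.95%, including SFPQ, had start peaks on both strands. Of 1602 genes with start peaks on the antisense strand alone in untreated cells, 50 had start peaks on the sense strand alone in treated cells, and TAF15 was among them. EWSR1 shared its state with 66.5% of coding genes, which had no start peak in either list. The state of PSPC1 was that of 12.1% of coding genes, and the state of TAF15, whose untreated peak overlaps a neighbouring gene, that of 0.252%.

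**Figure D2:**
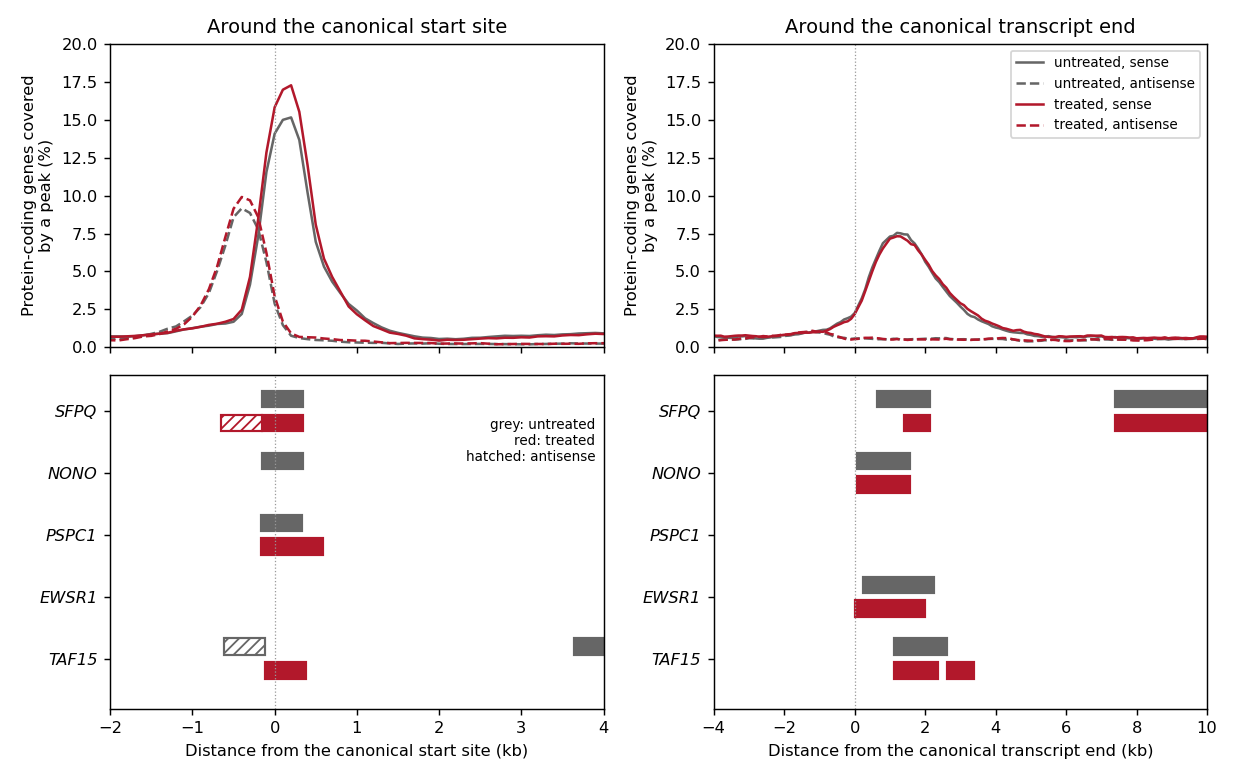
Position of peaks around the canonical start site (left) and canonical transcript end (right). The upper panels give the percentage of 19819 protein-coding genes covered by a peak at each distance in kb, in untreated (grey) and treated (red) cells, sense (solid) and antisense (dashed). The lower panels give the peaks of the 5 genes on the same distances, with antisense peaks hatched. The sense maximum beyond the end is at 1200 bp in both lists, and the near peaks of SFPQ, EWSR1 and TAF15 in the untreated list cover that distance, as does the NONO peak.

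Beyond the end, SFPQ, NONO, EWSR1 and TAF15 had a sense peak whose midpoint lay within 10 kb past the canonical transcript end in both lists, 4 of the 5 genes. Over coding genes this share was 18.1% in untreated cells, 18.7% in treated cells and 14.7% in both lists together. Across all coding genes the sense coverage was highest 1200 bp past the end, at 7.54% of genes in untreated and 7.32% in treated cells, while at the start site it was highest 200 bp into the gene, at 15.2% and 17.3%. Antisense coverage was highest upstream, at position -400 bp from the start site, where it was 9.16% and 9.91%. The SFPQ antisense peak of the treated list and the TAF15 antisense peak of the untreated list both covered that position. When peaks within 1000 bp of another coding start were left out, NONO was lost and SFPQ, EWSR1 and TAF15 were kept, against 13.5% of coding genes in untreated and 13.7% in treated cells.

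The assignment of these peaks depended on which end of the gene was used. By the whole gene record, which can run past the canonical transcript, SFPQ, NONO, EWSR1 and TAF15 had an internal peak in both lists, against 13.4% of coding genes in untreated and 14.0% in treated cells. A peak past the record was then found at SFPQ and EWSR1 in untreated cells, against 20.8% of coding genes, and at SFPQ in treated cells, against 21.6%. The EWSR1 peak moved from the class past the record to the internal class only because the treated peak overlapped the record by 5 bp. By the canonical transcript, sense peaks with their midpoint in the body were found at EWSR1 and TAF15 in untreated cells, against 5.87% of coding genes, and at TAF15 in treated cells, against 5.99%.

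The classes also differed in how far the lists shared them. Counted from 1 shared base pair on the same strand, 8 of the 12 untreated and 9 of the 13 treated peaks at the 5 genes had a partner in the other list, and 2 had the same borders, the SFPQ start peak and the NONO peak beyond the end. When 90% reciprocal overlap was asked for, 3 untreated and 3 treated peaks had a partner. When a partner within 250 bp on the same strand was enough, 8 untreated and 10 treated peaks had one. The matching shares over all peaks of each list were not computed, so these counts do not set the members apart. All 5 untreated peaks beyond an end had a partner, and 5 of the 6 treated ones. None of the 2 untreated and 1 treated peaks in gene bodies had a partner. Over all coding genes each sense peak was counted once, as a start peak before a body peak and as a body peak before one beyond an end. The NONO peak beyond the end, which lies across the ITGB1BP2 start, therefore counted there as a start peak. So counted, the share with a partner beyond an end was 75.8% of 2609 untreated and 73.9% of 2709 treated peaks. In bodies it was 57.0% of 1088 and 55.2% of 1116 peaks. At starts it was 80.8% of 3589 untreated and 72.9% of 3991 treated sense peaks, and of the 3 sense start peaks at the members in each list 2 had a partner.

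The peaks in gene bodies shared a further feature, the presence of sequence that recurs in the genome. Of the 31-base words in the EWSR1 body peak 31.6% occurred more than once in the GRCh37 sequence on either strand, and 21.8% and 31.3% of those in the untreated and treated TAF15 body peaks. The median over all peaks was 0% in both lists and the upper quartile 17.7% in untreated and 16.5% in treated cells. The start peaks of SFPQ and PSPC1, the SFPQ peak nearer to the end and the NONO peak beyond the end held no such word. Some start peaks without a partner were also low, with 0% in the antisense peaks of SFPQ and TAF15 and 4.47% in the NONO peak. Recurring words were not limited to bodies, since the farther SFPQ peak had 17.4% in untreated and 21.5% in treated cells and the antisense EWSR1 peak of untreated cells 37.3%. The antisense EWSR1 peaks of treated cells had 12.8% and 54.7%, the latter the highest of the member peaks. The TAF15 peaks beyond the end had 11.5% in untreated cells and 13.9% and 9.17% in treated cells. The treated TAF15 start peak had 16.0%, in words found at most 2 times. Whether recurring sequence had a part in which peaks were listed was not tested.

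**Figure D3:**
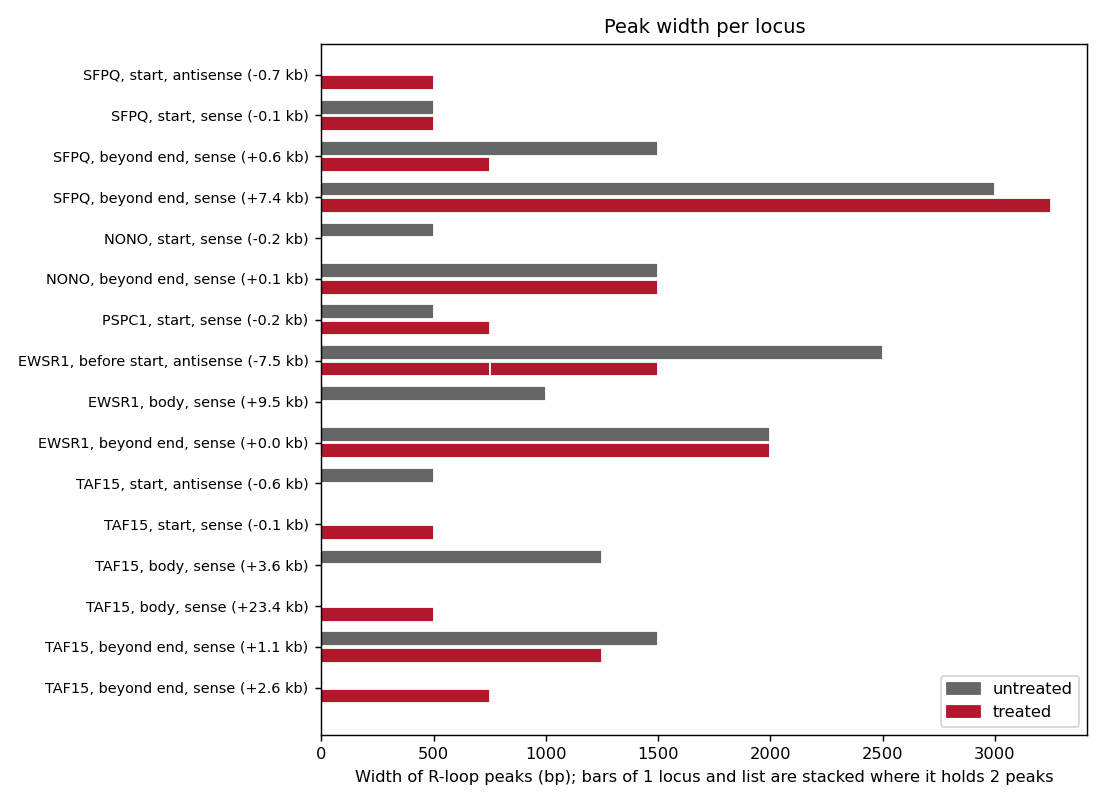
Width in bp of each R-loop peak at the 5 genes, in untreated (grey) and treated (red) cells, with the distance in kb of the locus from the canonical start site (start, body, before start) or transcript end (beyond end). Missing bars are peaks not in that list. Start peaks are 500 to 750 bp wide, and the 2 widest bars are those of the SFPQ peak that begins 7391 bp past the end, 3000 and 3250 bp.

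Widths moved in steps of 250 bp, as did 99.94% of all untreated and 99.97% of all treated peaks, so a difference of 250 bp is the smallest the lists can show. Member start peaks on the sense strand were 500 bp wide in untreated cells and 500 or 750 bp in treated cells, around the median of 500 bp of the widest sense start peak per coding gene in both lists. Peaks beyond an end were wider, with a median at the 5 genes of 1500 bp in the untreated list and 1375 bp in the treated list. Over all coding genes the median of sense peaks in this class was 1000 bp in both lists, with the NONO peak counted among start peaks there. Between the lists the nearer SFPQ peak was narrower in treated cells, the farther SFPQ peak was wider, and those of NONO and EWSR1 had equal widths. At TAF15 the peak with the shared near border was 1500 bp wide in untreated and 1250 bp in treated cells. The treated list held a further TAF15 peak of 750 bp past it, so the listed length beyond that end was larger in treated cells. The median over all member peaks was 1375 bp for untreated cells and 750 bp for treated cells, and the median over each whole list was 750 bp.

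Summed over the record and 10 kb on either side, EWSR1 held 5500 bp of peaks in untreated and 3500 bp in treated cells, more than 99.5% and 94.4% of coding genes with any peak there. On its own strand it held 3000 and 2000 bp, less than SFPQ, the rest being the peaks inside RHBDD3. SFPQ held 5000 bp in both lists, more than 99.2% of such genes in each, of which 4500 bp were on the sense strand in treated cells. TAF15 held 3250 and 3000 bp, NONO 2000 and 1500 bp, and PSPC1 500 and 750 bp. The median over coding genes with a peak was 1250 bp in both lists. All 5 genes together held 16250 bp of peaks in the untreated list and 13750 bp in the treated list, so 1 more peak went with less listed length. The extra peak depended on the setting. With peaks within 250 bp merged, or with a flank of 5 kb, both lists held 12 peaks, and with 2 kb both held 11. With a flank of 20 kb the untreated and treated lists held 13 and 14 peaks, and by midpoint 12 and 13. EWSR1 had the largest difference, 2000 bp, at its body peak and at the antisense peak in RHBDD3.

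**Figure D4:**
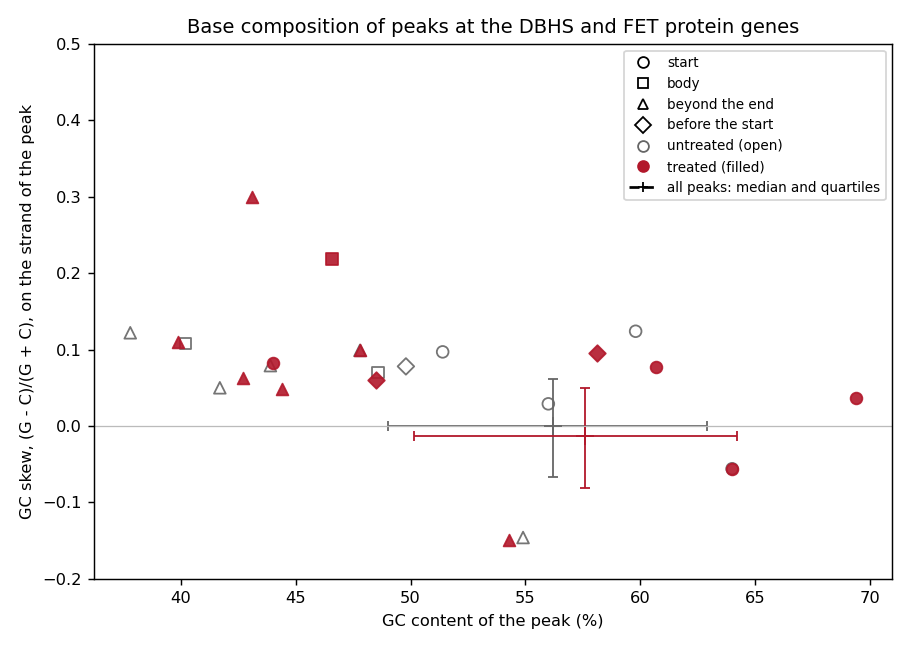
GC content (x axis, percent) and GC skew (y axis, on the strand of the peak) of every peak at the 5 genes. Open symbols are untreated and filled symbols treated peaks, with circles for starts, squares for bodies, triangles for peaks beyond the end and diamonds for peaks before the start, and a peak with the same borders in both lists appears as 1 filled symbol. Crosses are the medians and quartiles over all peaks of each list. All triangles lie to the left of the median of their list, and the EWSR1 pair, at 54.9% and 54.3%, comes closest to it in GC content.

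Sense start peaks were richer in G and C than peaks beyond an end, whereas the antisense start peaks of TAF15 and SFPQ fell within the range of the latter. GC content of the peaks beyond an end was 37.8% to 54.9% in untreated and 39.9% to 54.3% in treated cells, below the list medians of 56.2% and 57.6% in every case. All start peaks together had 51.4% to 64.0% in untreated and 44% to 69.4% in treated cells, the lowest being the antisense peaks of TAF15 and SFPQ. The GC skew was positive in every member peak except the SFPQ start peak and the EWSR1 peak beyond the end, in both lists, whereas the median over all peaks was 0 in untreated and -0.013 in treated cells.

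In a list of 27 other genes for paraspeckle proteins, put together by hand from general knowledge of the paraspeckle, more genes had a peak beyond the end than at the start. Sense start peaks were at 10 of the 27 genes in each list, against 18.6% of coding genes in untreated and 20.6% in treated cells. They were at 9 in both lists, against 15.2%, and at 7 with the same borders, against 8.28%. The widest was at AKAP8L, which encodes a nuclear matrix protein, at chr19:15529345-15531844 in untreated and chr19:15529345-15531594 in treated cells. Antisense start peaks were at 6 genes in untreated and 7 in treated cells, against 11.2% and 12.1% of coding genes. Sense peaks beyond the canonical end were at 17 genes in untreated and 20 in treated cells, against 18.1% and 18.7%, and 17 genes had them in both lists, against 14.7%. PSPC1 had a start peak but none beyond its end, while NONO in treated cells and EWSR1 in both lists had a peak beyond the end and none at the start.

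When the full set of record classes and strands in both lists was compared, the combination seen at PSPC1 recurred in 973 of 19818 other coding genes and that of NONO in 35. The combination at SFPQ recurred in 2, that at EWSR1 in 3, and that at TAF15 in 0. Genes with more peaks have more combinations open to them, so a rare combination is no measure of an unusual response.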

How the data were processed

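spKAS-seq was done by the authors in untreated and N2-heptynyl-dG-treated HEK293T cells. Per the labels, reads were trimmed with Trim Galore, aligned to hg19 with Bowtie2 and freed of duplicates with Picard, and versions are not given in the sources used here. The deposited lists hold positions only, 4 columns per peak, without counts or heights, and the methods name 2 replicates for R-loop identification without saying how they were combined. No peak ended past a GRCh37 chromosome end.

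Peaks were matched to GENCODE release 44 mapped to GRCh37, in which 279 of 20098 protein-coding genes had no canonical transcript and were left out. Genes named individually were the 5 members, genes that overlap their peaks or start within 1000 bp of them, and paraspeckle genes with the widest start peak. The members and lists were chosen with earlier results of these data known, and the classes by the canonical end and by recurring words were added after seeing the data. Of 159 peaks planted by the same class definitions, 159 were given the right class and strand, and all 40 planted beyond an end were found. Planted peaks of other classes close to a start site were left out. The check therefore covers the code and not how well the classes describe a gene. Shares carry 95% Wilson intervals. The work used Python 3.11.15, pysam 0.24.0, samtools 1.23.1, pandas 2.3.3, numpy 2.4.6, scipy 1.17.1 and matplotlib 3.10.9.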

Additional observations from a re-analysis of the deposited data

How the results depend on the processing

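Of 118 alternative values for 39 results, 59 stayed close to the reported value and 59 moved. Whether a result changed direction was not assessed. No paired analysis was possible because the peak lists number 1 per condition, and leaving out a replicate was not possible for the same reason. Depth and peak height were not analysed here, so the lists limit every comparison to presence, position and width.

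With every annotated start site, the members had 3 internal peaks in untreated cells, and 8 start and 2 internal peaks in treated cells. By midpoint, 3 treated peaks lay past a record. At 90% reciprocal overlap, 3 untreated and 3 treated member peaks were shared. EWSR1 held 3000 and 2000 bp of peaks on its own strand. The median GC skew over the middle 500 bp was 0.046 in untreated cells, against 0.079 over whole peaks, and the median GC content there 48.8% in treated cells, against 47.8%. The median summed length of sense start peaks in treated cells was 750 bp, against 500 bp for the widest.

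In untreated and treated cells in turn, sense start peaks were at 16.3% and 18.3% of coding genes with a window ending 100 bp after the start, 19.6% and 21.5% with 2000 bp on either side, 20.7% and 22.7% with every start site, 17.7% and 19.8% by midpoint, 9.03% and 10.2% with peaks not narrower than the list median, and 32.3% and 35.8% among genes with any peak. With wide peaks alone, no member in untreated cells and PSPC1 in treated cells kept a sense start peak, and with every start site TAF15 had one in both lists. Antisense start peaks were at 11.9% and 12.9% with 2000 bp, 13.2% and 14.4% with every start site, 10.5% and 11.5% by midpoint, 4.55% and 4.83% with wide peaks, where no member had one, and 19.4% and 21.1% among genes with any peak.

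Internal peaks were at 23.3% and 24.3% of genes with any peak, 9.59% and 9.74% for sense peaks, 16.7% and 17.7% of genes with a start peak, and 12.2% and 12.8% by midpoint, where NONO was lost in both lists and EWSR1 in treated cells. Peaks past the record were at 36.2% and 37.5% of genes with any peak, 16.3% and 17.0% for sense peaks, 30.1% and 30.3% of genes with a start peak, 16.2% and 16.8% within 5 kb, and 21.9% and 22.6% by midpoint. Sense peaks beyond the canonical end were at 15.5% and 15.9% within 5 kb, 10.3% and 10.2% within 2 kb, and 13.5% and 13.7% away from other coding starts. Start peaks common to both lists were at 14.6% with 50% reciprocal overlap, PSPC1 included, and those with the same borders at 14.4% of genes with any peak. The midpoint alternatives for internal peaks and peaks past the record, and all those for the canonical end, were chosen after seeing the data. The causes were not tested.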
